A study of Mus musculus with 24 samples.

Results

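The lysosome is the acidic compartment in which cells break down protein, sugar chains and lipid. The genes described here code for its soluble hydrolases and for proteins of its membrane. They were 34 named mouse genes in 4 roles: 9 proteases and their protective or thioester-cleaving partners (Ctsa, Ctsb, Ctsd, Ctsf, Ctsk, Ctsl, Ctsz, Tpp1, Ppt1), 12 enzymes that cut sugar chains or their sulfates (Gaa, Gla, Glb1, Gusb, Hexa, Idua, Ids, Man2b1, Manba, Naglu, Neu1, Sgsh), 6 genes of lipid handling (Smpd1, Lipa, Psap, Npc1, Npc2, Asah1) and 7 genes of the membrane (Lamp1, Lamp2, Cd63, Scarb2, Mcoln1, Cln3, Gpnmb). The 34 genes of this list, found by Ensembl identifier in the 24 libraries, are called members. Those with a mean count of at least 5 were tested. That held for 33 of the 34 genes, among 14361 genes in all with such a mean. Ctsf, with a mean count of 2.67, was below the limit and was not tested.

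The cells were NIH 3T3 mouse fibroblasts carrying pBabeNeo retroviral constructs, made into pooled stable lines by selection with G418. Cells with empty vector (EV), full-length TFE3, YAP-TFE3, YAP5SA, TAZ-CAMTA1 or TAZ4SA were collected 48 h after confluence, and CAMTA1 cells below confluence. In TAZ4SA and YAP5SA the serines phosphorylated by the LATS kinases are changed to alanine, and a second empty vector group (EVsub) was labelled as sub-confluent. Each of the 8 groups had 3 libraries of polyadenylated RNA, and 1 library titled as YAP-TFE3 replicate 3 carried a description that conflicted with its title, so the title was used.

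TFE3 belongs with TFEB, MITF and TFEC to the MiT/TFE family of transcription factors. These proteins bind E-box sequences, and many lysosomal genes carry the extended form GTCACGTG, called the CLEAR element, near their start sites. YAP-TFE3 and TAZ-CAMTA1 are fusion proteins of epithelioid hemangioendothelioma, in which part of YAP or TAZ is joined to part of TFE3 or CAMTA1. Gpnmb, Mcoln1 and the LAMP genes are known targets of MiT/TFE proteins in other cells.

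Of the 34 members, 31 had a promoter entry in the RefSeq set of build GRCm38.p6, read from 250 bases before to 50 bases after the start. Ctsb, Npc1 and Asah1 had none. Searched on both strands, GTCACGTG stood in the promoters of 9 members (Ctsa, Cln3, Ctsd, Mcoln1, Lamp1, Glb1, Naglu, Sgsh and Gla), or 26.5% of the members' 34 entries, against 2.25% of 32851 promoters in all. The shorter CACGTG, which lies inside it, stood in 12 members (also Gaa, Ctsl and Ctsf), 35.3% of entries against 7.15%. TCATGTG, called the M-box, was searched as well and stood in 5 members (Ctsa, Ppt1, Scarb2, Tpp1 and Gla), 14.7% of entries against 3.77%. GGAATG, the site bound by TEAD proteins, stood in 14.7% of the members' entries and in 14.7% of all promoters. Gpnmb, Lamp2, Ctsk, Npc2 and Smpd1 had an entry without CACGTG.

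The 250 bases before the start are shown for 5 members that differ in their levels between the groups below, taken from RefSeq and written 5′ to 3′ on the gene's strand. Capitals mark CACGTG, and GTCACGTG or its reverse complement CACGTGAC where the longer form stands. Lamp1 has 4 E-boxes, Mcoln1, Ctsd and Gla have 2 each, and Naglu has 1.
Lamp1, chr8:13158911-13159160, plus strand: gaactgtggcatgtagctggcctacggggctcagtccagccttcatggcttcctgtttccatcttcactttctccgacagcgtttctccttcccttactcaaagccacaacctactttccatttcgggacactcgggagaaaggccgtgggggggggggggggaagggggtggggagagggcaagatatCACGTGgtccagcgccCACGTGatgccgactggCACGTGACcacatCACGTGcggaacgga
Mcoln1, chr8:3500269-3500518, plus strand: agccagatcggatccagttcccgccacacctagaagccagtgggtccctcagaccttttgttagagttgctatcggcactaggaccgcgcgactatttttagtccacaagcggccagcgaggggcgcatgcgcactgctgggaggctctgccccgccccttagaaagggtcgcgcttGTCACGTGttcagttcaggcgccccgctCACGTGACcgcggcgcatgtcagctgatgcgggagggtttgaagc
Ctsd, chr7:142387828-142388077, minus strand: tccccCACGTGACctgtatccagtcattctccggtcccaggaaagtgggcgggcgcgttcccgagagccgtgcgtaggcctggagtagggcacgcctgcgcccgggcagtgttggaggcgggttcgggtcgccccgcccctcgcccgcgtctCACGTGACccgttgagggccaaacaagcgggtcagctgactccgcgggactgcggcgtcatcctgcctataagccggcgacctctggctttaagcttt
Naglu, chr11:101069844-101070093, plus strand: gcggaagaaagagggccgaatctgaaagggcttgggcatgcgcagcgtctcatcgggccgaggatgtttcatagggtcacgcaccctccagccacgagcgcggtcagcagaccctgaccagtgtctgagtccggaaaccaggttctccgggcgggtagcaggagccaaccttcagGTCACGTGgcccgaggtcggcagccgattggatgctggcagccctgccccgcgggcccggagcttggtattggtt
Gla, chrX:134601006-134601255, minus strand: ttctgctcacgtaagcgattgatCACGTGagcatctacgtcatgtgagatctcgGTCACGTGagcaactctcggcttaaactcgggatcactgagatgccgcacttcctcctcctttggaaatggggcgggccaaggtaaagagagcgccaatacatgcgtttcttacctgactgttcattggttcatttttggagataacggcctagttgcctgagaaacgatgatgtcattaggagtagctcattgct

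The E-boxes of Lamp1 began 61, 45, 28 and 15 bases before its start, and those of Mcoln1 71 and 45 bases before. In Ctsd they began 245 and 98 bases before the start, in Gla 227 and 194, and in Naglu 73. Presence of the letters says nothing about binding, which was not measured in these libraries.

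Library totals ran from 16471181 to 30132586 counts, with a median of 22298975. Scaling factors set the YAP5SA libraries (0.826, 0.773 and 0.829) and TAZ4SA replicates 1 and 2 (0.930 and 0.810) apart from the other libraries, which lay between 1.00 and 1.09, with TAZ4SA replicate 3 at 1.04. TAZ4SA replicate 3 had the lowest correlation with its own group of any library, 0.974. EVsub replicates 1 and 3 correlated more closely with a CAMTA1 library (0.992 and 0.989) than on average with their own group (0.987 and 0.985). Levels below are CPM, the counts of a gene scaled to a common library size, after TMM scaling, a method that sets libraries to a common scale from the bulk of genes.

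Levels of different genes can be compared once divided by the length of their exons. On that scale the most abundant members in EV cells were Psap (mean 947.5 CPM per kb, SD 58.2), Lamp1 (552.6, SD 15.0), Ctsd (480.8, SD 32.6), Cd63 (284, SD 12.8) and Ctsb (194, SD 12.6). Lowest of the 33 were Manba at 0.0710 and Cln3 at 0.554 CPM per kb. In TFE3 cells Psap (1097, SD 34.02), Lamp1 (1014.5, SD 41.9) and Ctsd (716, SD 18.2) again stood at the top of the members. Gpnmb moved from 9.77 (SD 1.57) in EV to 89.9 CPM per kb (SD 11.5) in TFE3 cells.

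Summed over the 34 members, lysosomal transcripts made up 1.46% of the unscaled counts in EV cells (SD 0.0359, 3 libraries) and 2.04% in TFE3 cells (SD 0.0170). The sum was 1.43% in YAP-TFE3 (SD 0.105), 1.13% in TAZ-CAMTA1 (SD 0.0917), 1.11% in YAP5SA (SD 0.0250) and 0.865% in TAZ4SA (SD 0.143). It was 1.06% in CAMTA1 cells (SD 0.0948) and 0.948% in EVsub cells (SD 0.101). The place of YAP5SA and TAZ4SA depended on scaling. As TMM-scaled sums the members came to 13898 CPM in EV, 19320.0 in TFE3, 13795 in YAP-TFE3, 13741 in YAP5SA, 10832 in TAZ-CAMTA1, 9936 in CAMTA1, 9568 in TAZ4SA and 9045 CPM in EVsub cells. These are bulk libraries, so fewer cells expressing a gene and less of its RNA per cell cannot be told apart. Psap held the most counts of the members in each group but YAP5SA, where Lamp1 and Ctsd held more, and the order of EV and TFE3 was unchanged when it was left out, at 1.18% and 1.72%. YAP-TFE3 then stood at 1.21%, YAP5SA at 0.971%, TAZ-CAMTA1 at 0.934%, CAMTA1 at 0.887%, EVsub at 0.798% and TAZ4SA at 0.749%. Between EV and TFE3 cells the share of the membrane genes went from 0.376% to 0.607%, that of the proteases from 0.492% to 0.685%, that of the glycan enzymes from 0.171% to 0.269%, and that of the lipid genes from 0.416% to 0.477%.

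**Figure D1:**
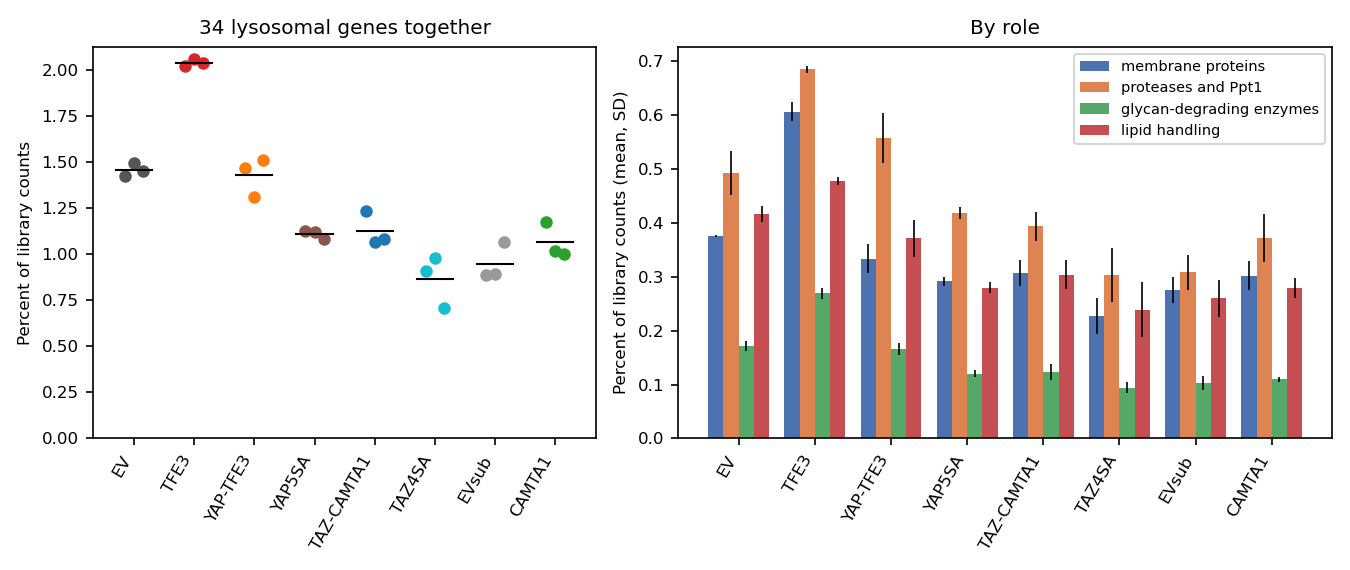
Share of unscaled counts (vertical axes, percent) held by the 34 members together, with 1 point per library, and by role, as means with SD, in each group (horizontal axes). The TFE3 libraries lie above those of every other group, and TAZ4SA has the lowest mean on this unscaled measure.

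Cells with full-length TFE3 are described first, beginning with the membrane genes. Gpnmb, a membrane glycoprotein, lay at 71.2, 51.9 and 67.7 CPM in the EV replicates and at 524, 669 and 563 CPM in the TFE3 replicates. Lamp1 lay at 1458, 1524 and 1452 CPM in EV and 2684, 2619.9 and 2838 CPM in TFE3 cells. The calcium channel gene Mcoln1 lay at 73.5, 74.0 and 75.0 CPM in EV and 149.9, 145 and 148 CPM in TFE3 cells. For these 3 genes each TFE3 library lay above each EV library, and above all libraries of the other 6 groups. Lamp2 was at 827, 844 and 849.6 CPM in EV and 934, 951 and 1019 CPM in TFE3 cells, a smaller step without overlap. The share of all tested genes without overlap between groups was not counted, so overlap is given here and below as description only.

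Among the proteases, Ctsb lay at 1128, 1264 and 1136 CPM in EV and 1868, 1824 and 1928 CPM in TFE3 cells, and Ctsd at 1043, 1184 and 1165 CPM in EV and 1687, 1723 and 1638 CPM in TFE3 cells. Neither gene had an EV library that reached the TFE3 range. Ctsk was at 30.5, 48.5 and 31.7 CPM in EV and 50.3, 47.6 and 50 CPM in TFE3 cells, and here the ranges overlapped. Of the glycan enzymes, Gla lay at 182, 208 and 201 CPM in EV and 385, 340.4 and 350.0 CPM in TFE3 cells, and Naglu at 119, 132 and 124 CPM in EV and 236, 261 and 222 CPM in TFE3 cells. The cholesterol exporter Npc1 lay at 82.4, 79.8 and 80.4 CPM in EV and 149.8, 149 and 151 CPM in TFE3 cells. Gla, Naglu and Npc1 were higher in each TFE3 library than in any EV library.

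**Figure D2:**
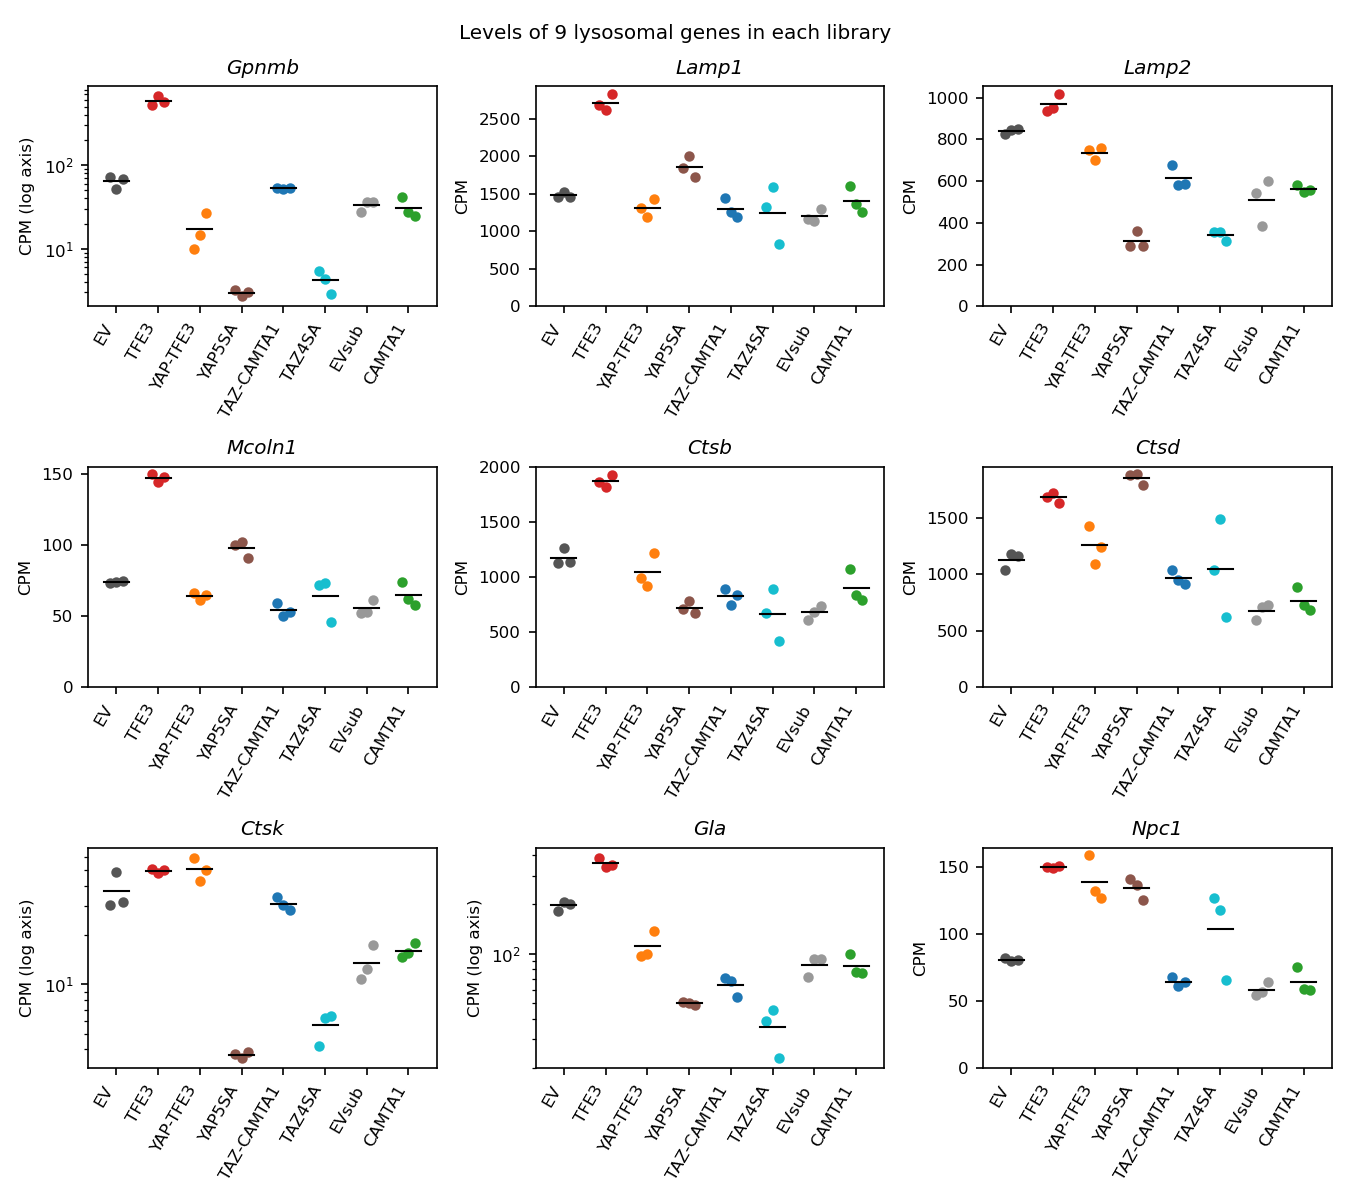
Levels (vertical axes, CPM, on a log scale for Gpnmb, Ctsk and Gla) of 9 members by group (horizontal axes), with 1 point per library. TFE3 libraries are highest for Gpnmb, Lamp1, Mcoln1, Ctsb and Gla, while YAP5SA and TAZ4SA libraries are low for Gpnmb, Lamp2, Ctsk and Gla.

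Each comparison was tested with edgeR over 14361 genes with a mean count of at least 5, and a gene was called where its p-value, adjusted for all those genes, was under 0.05. With TFE3, 12 of 33 members were called higher and 0 lower by edgeR, where 2.36% of all tested genes were higher and 1.02% lower. At unadjusted p under 0.05 the counts were 20 higher and 0 lower, and by DESeq2 14 and 0. DESeq2 called 703 of 14360 genes in all, in either direction. The share of all genes at unadjusted p was not counted, so the unadjusted counts here and below have no background beside them. The 12 were 4 membrane genes, 2 proteases, 5 glycan enzymes and 1 lipid gene, and 30 of 33 members had a positive sign. The median log2 fold change was 0.48 over the members and -0.021 over all tested genes.

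Gpnmb rose most (9.196-fold, log2 fold change 3.20, SE 0.262, adjusted p = 1.99e-07). Mcoln1 rose 1.99-fold (log2 fold change 0.99, SE 0.131, adjusted p = 8.47e-05), Naglu 1.92-fold (log2 fold change 0.94, SE 0.173, adjusted p = 0.00289) and Lamp1 1.84-fold (log2 fold change 0.88, SE 0.163, adjusted p = 0.00321). The other called members, named after their values were seen, were Npc1 (0.89, adjusted p = 0.00244), Gla (0.86, adjusted p = 0.00808), Neu1 (0.78, adjusted p = 0.00911), Ctsa (0.75, adjusted p = 0.0159), Gaa (0.64, adjusted p = 0.00945), Man2b1 (0.63, adjusted p = 0.0227) and Scarb2 (0.48, adjusted p = 0.0434), together with Ctsb (0.67, adjusted p = 0.0439). These calls were not equally firm. Ctsb, Man2b1 and Scarb2 were not called when any 1 of the 6 EV and TFE3 libraries was left out, with adjusted p from 0.0812 to 0.156 for Ctsb. Ctsa lost its call without EV replicate 1, 2 or 3 or TFE3 replicate 2 (0.0563 to 0.0724), Gaa without EV replicate 1 (0.0539) or TFE3 replicate 2 (0.0662), and Neu1 without EV replicate 3 (0.0543). The count of called members was 7 without EV replicate 1, EV replicate 3 or TFE3 replicate 2.

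Ctsd (0.57, adjusted p = 0.124) and Lamp2 (0.20, adjusted p = 0.533) were not called with TFE3, although their libraries did not overlap EV. Ctsk (0.42, adjusted p = 0.259) and Npc2 (0.050, adjusted p = 0.955) overlapped EV and were not called. Of the 12 called members 10 had a promoter entry, and 5 of these held GTCACGTG and 6 CACGTG. Of the 21 members not called 20 had an entry, and 4 held GTCACGTG and 5 CACGTG. Ctsd, whose promoter is printed above, was among the 4, and Gpnmb, with the largest rise of the members, had no CACGTG in its entry.

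YAP-TFE3 cells are described next. Gpnmb lay at 9.98, 14.7 and 27.0 CPM in the YAP-TFE3 replicates, below each EV library. Lamp1 was at 1315, 1187 and 1427 CPM, Lamp2 at 748, 702 and 758 CPM and Mcoln1 at 66.6, 61.5 and 64.9 CPM, in each case just under the EV range. Gla lay at 96.6, 99.994 and 137 CPM, also below each EV library. Npc1, at 159, 132 and 126 CPM, lay above the EV range and overlapped the TFE3 range. Man2b1 went from 107, 109.8 and 115 CPM in EV to 227, 158 and 163 CPM, again without overlap.

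Ctsl lay at 1058, 1478 and 1065 CPM in EV and 2017, 1477 and 1579 CPM in YAP-TFE3 cells, and the highest EV library just reached the lowest of the fusion. Ctsb, at 997, 920.3 and 1223 CPM, Ctsd, at 1428, 1097 and 1246 CPM, and Ctsk, at 59.0, 42.7 and 50.2 CPM, overlapped EV. Against EV, 4 of 33 members were called higher with YAP-TFE3 and 2 lower, where 10.6% of all tested genes were higher and 4.74% lower. Both shares were near those of all genes, and the members' median log2 fold change was 0.018.

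Of the called members Npc1 (1.72-fold, log2 fold change 0.78, SE 0.159, adjusted p = 0.00134), Man2b1 (1.65-fold, log2 fold change 0.73, SE 0.151, adjusted p = 0.00164) and Ctsl (1.41-fold, log2 fold change 0.49, SE 0.138, adjusted p = 0.0161) rose most, followed by Smpd1 (0.45, adjusted p = 0.0237), named after its values were seen. Gpnmb fell to 0.272 of its EV level (log2 fold change -1.88, SE 0.256, adjusted p = 1.73e-05) and Gla to 0.564 (log2 fold change -0.83, SE 0.181, adjusted p = 0.00247). Ctsl and Smpd1 each lost the call when EV replicate 1, EV replicate 3 or YAP-TFE3 replicate 1 was left out, Ctsl with adjusted p of 0.101, 0.104 and 0.210 (at 0.32 in the last) and Smpd1 with 0.0886, 0.0710 and 0.165. Ctsl also lost it with only the 2 groups compared (adjusted p = 0.0979). Not called were Lamp1 (-0.17, adjusted p = 0.544), Lamp2 (-0.19, adjusted p = 0.376), Mcoln1 (-0.21, adjusted p = 0.34), Ctsb (-0.17, adjusted p = 0.617), Ctsd (0.15, adjusted p = 0.677), Ctsk (0.46, adjusted p = 0.0889) and Npc2 (-0.23, adjusted p = 0.514). Ctsk was called without EV replicate 2 (0.70, adjusted p = 0.00877).

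YAP-TFE3 and TFE3 were also compared directly, and there 2 members were higher with the fusion and 10 lower, where 14.3% of all tested genes were higher and 8.62% lower. Of the 10, 5 were membrane genes, 4 glycan enzymes and 1 a protease. Gpnmb was 0.0295 of its TFE3 level (log2 fold change -5.08, SE 0.288, adjusted p = 8.67e-11) and Gla 0.310 (log2 fold change -1.69, SE 0.184, adjusted p = 6.22e-07). Mcoln1 (-1.20, adjusted p = 7.04e-07), Lamp1 (-1.05, adjusted p = 5.11e-05), Ctsb (-0.84, adjusted p = 0.00161) and Lamp2 (-0.40, adjusted p = 0.0298) were lower as well. Lamp2 was not called when any 1 of the 6 libraries was left out (0.0526 to 0.105). Scarb2 and Naglu, named after their values were seen, were also among the 10. Each lost the call without TFE3 replicate 1, 2 or 3 or YAP-TFE3 replicate 2 or 3. Adjusted p was then 0.0611 to 0.163 for Scarb2 and 0.0626 to 0.2 for Naglu. With the replicate number as a block Naglu was not called either (0.0613). Smpd1 (log2 fold change 0.55, SE 0.135, adjusted p = 0.00434) and Ctsl (log2 fold change 0.48, SE 0.138, adjusted p = 0.0133) were the 2 higher members. Ctsl was not called without TFE3 replicate 2 (0.0507) or YAP-TFE3 replicate 1 (0.30, adjusted p = 0.176). Npc1, higher than EV with both proteins, was not called between them (-0.11, adjusted p = 0.685), and neither were Ctsd (-0.42, adjusted p = 0.131), Ctsk (0.037, adjusted p = 0.916) and Npc2 (-0.28, adjusted p = 0.36).

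**Figure D3:**
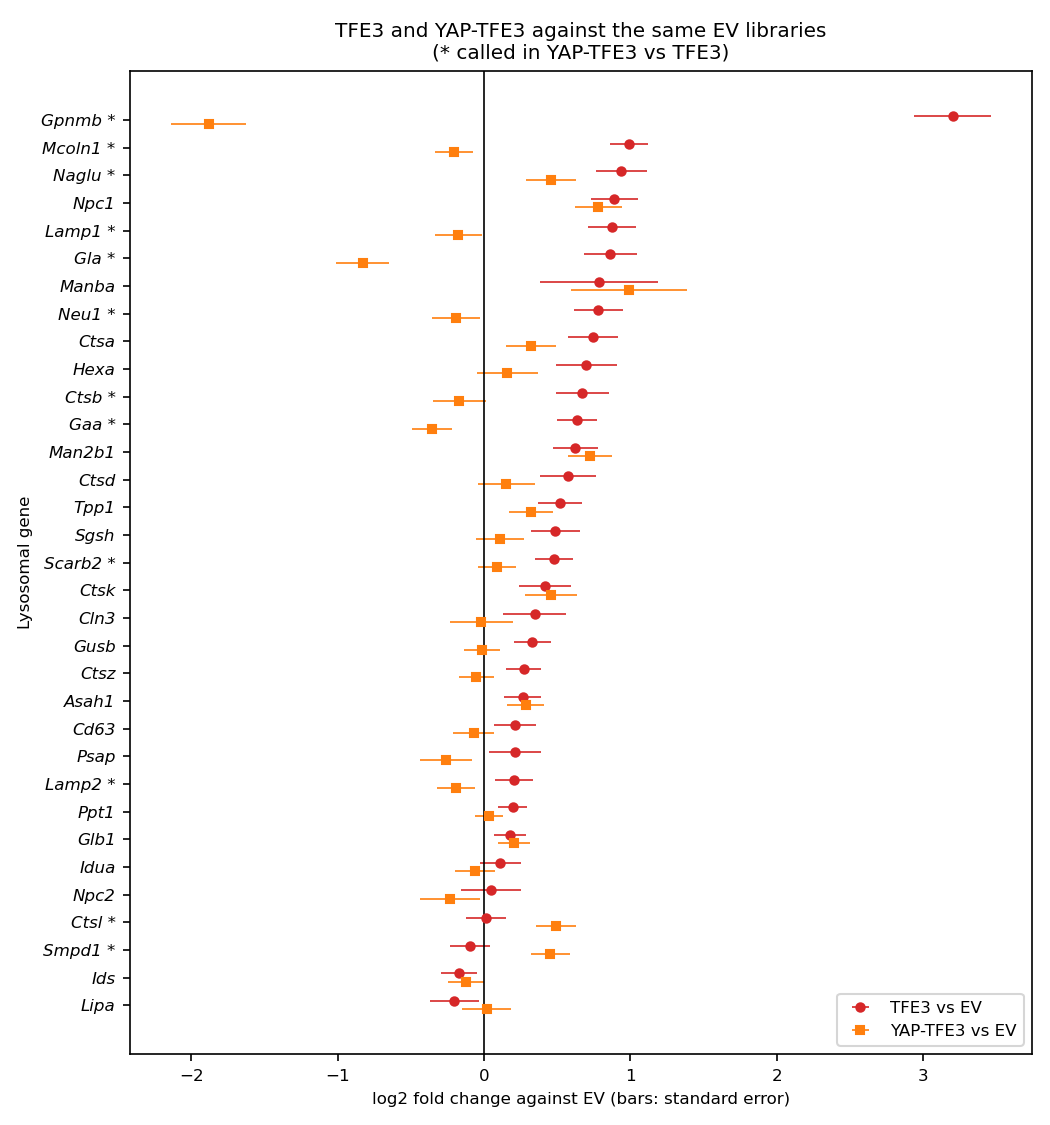
Log2 fold changes against EV with standard errors (horizontal axis) of the 33 tested members (vertical axis) with TFE3 and with YAP-TFE3, where an asterisk marks a call between them. The values share the EV libraries, and Gpnmb, Gla, Mcoln1 and Lamp1 lie furthest apart.

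YAP5SA cells, whose construct carries no TFE3 sequence, had members on both sides of EV. Its Gpnmb level was 3.23, 2.70 and 3.04 CPM, its Ctsk level 3.75, 3.53 and 3.86 CPM and its Gla level 50.2, 49.8 and 48.4 CPM. Lamp2 was at 289, 362 and 288 CPM, while Lamp1 was at 1839.9, 2010.2 and 1719.8 CPM. For Gpnmb, Ctsk, Gla and Lamp2 all YAP5SA libraries lay below all EV libraries, and for Lamp1 they lay above. The sphingomyelinase gene Smpd1 lay at 43.8, 47.1 and 45.7 CPM in EV and 156, 136 and 148 CPM in YAP5SA cells. Cln3, a sparse transcript, lay at 3.04, 3.87 and 2.70 CPM in EV and 6.37, 5.25 and 6.34 CPM in YAP5SA cells. Npc1, at 141, 137 and 126 CPM, and Ctsd, at 1883, 1888 and 1797 CPM, were likewise above EV without overlap, and Ctsb, at 713, 781 and 673 CPM, was below.

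With YAP5SA 12 of 33 members (36.4%) were called higher and 14 (42.4%) lower, where 36.3% of all tested genes were higher and 34.9% lower, so the split was close to that of all genes. Smpd1 rose 3.23-fold (log2 fold change 1.69, SE 0.137, adjusted p = 5.03e-10), Cln3 1.87-fold (log2 fold change 0.90, SE 0.213, adjusted p = 0.000683) and Npc1 1.66-fold (log2 fold change 0.73, SE 0.159, adjusted p = 0.000305). Gpnmb fell to 0.0470 of EV (log2 fold change -4.41, SE 0.307, adjusted p = 5.13e-11), Ctsk to 0.101 (log2 fold change -3.31, SE 0.209, adjusted p = 1.45e-11) and Gla to 0.251 (log2 fold change -1.995, SE 0.187, adjusted p = 4.48e-09). Glycan enzymes were mostly lower, with 3 higher and 8 lower, while the proteases had 4 higher and 3 lower, the membrane genes 3 and 2 and the lipid genes 2 and 1. Lamp2 (-1.43, adjusted p = 3.67e-09) and Ctsb (-0.70, adjusted p = 0.00171) fell, Ctsd (0.72, adjusted p = 0.00244) and Mcoln1 (0.40, adjusted p = 0.00896) were higher, and Lamp1 (0.33, adjusted p = 0.0747) and Npc2 (0.32, adjusted p = 0.163) were not called. The higher side depended on scaling: with library totals in place of TMM, an alternative chosen after the data were seen, 4 members were higher (Smpd1, Cln3, Npc1 and Ctsz) and 17 lower. Under library totals Lamp1 (-0.048, adjusted p = 0.758) and Npc2 (-0.056, adjusted p = 0.779) were negative, and Ctsd (0.34, adjusted p = 0.0553) and Mcoln1 (0.026, adjusted p = 0.844) were not called. That scaling moved the median log2 fold change of all tested genes from 0.014 to -0.36 in this comparison.

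Compared directly with YAP5SA, YAP-TFE3 had 14 of 33 members higher and 10 lower, shares near those of all genes, where 36.4% of all tested genes were higher and 34.5% lower. Ctsk was 13.6-fold higher (log2 fold change 3.77, SE 0.211, adjusted p = 4.08e-12). Manba, at 0.0513, 0.0491 and 0.317 CPM in YAP5SA and 1.20, 1.04 and 0.722 CPM in YAP-TFE3 cells, followed (log2 fold change 2.90, SE 0.524, adjusted p = 4.09e-05), on a mean of 12.7 counts per library. Lower in the fusion were Smpd1 (log2 fold change -1.24, SE 0.135, adjusted p = 4.78e-08) and Cln3 (log2 fold change -0.92, SE 0.212, adjusted p = 0.000549). Ctsk and Smpd1 thus stood much nearer EV in the fusion than in YAP5SA cells. Gpnmb (2.53, adjusted p = 1.67e-07), Lamp2 (1.23, adjusted p = 3.3e-08) and Ctsb (0.54, adjusted p = 0.0125) were higher, and Mcoln1 (-0.61, adjusted p = 0.000283), Lamp1 (-0.50, adjusted p = 0.00865), Ctsd (-0.56, adjusted p = 0.0133) and Npc2 (-0.56, adjusted p = 0.0192) lower. The call of Ctsb was lost without YAP-TFE3 replicate 3 (0.0750), that of Ctsd without YAP-TFE3 replicate 2 (0.0637) and that of Npc2 without YAP5SA replicate 2, YAP-TFE3 replicate 1 or YAP-TFE3 replicate 2 (0.0597 to 0.0785). Library totals gave 19 higher and 5 lower, with the all-gene median moving from 0.047 to 0.41, and Lamp1, Mcoln1, Ctsd and Npc2 were then not called.

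TAZ4SA cells resembled YAP5SA cells in which members were lowest. Gpnmb lay at 5.36, 4.35 and 2.86 CPM, Ctsk at 4.22, 6.22 and 6.38 CPM, Gla at 38.8, 45.4 and 22.8 CPM and Lamp2 at 358, 358 and 313 CPM, each below all EV libraries. Smpd1, at 72.1, 95.1 and 52.5 CPM, lay above EV. Lamp1 at 1324, 1585 and 827 CPM, Ctsb at 676, 895 and 422 CPM, Ctsd at 1041, 1495 and 621 CPM and Npc2 at 774, 1046 and 424 CPM were spread widely, with replicate 3 lowest for each. Lamp1, Ctsd and Npc2 overlapped EV. The spread between TAZ4SA replicates was wider after scaling: the 34 members together held 0.910%, 0.981% and 0.705% of unscaled counts, and 9788, 12108 and 6807 CPM after TMM.

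With TAZ4SA 1 of 33 members was called higher and 18 lower, where 31.1% of all tested genes were higher and 26.4% lower. Smpd1 was the member that rose (1.61-fold, log2 fold change 0.68, SE 0.135, adjusted p = 0.000189). Gpnmb fell to 0.0654 of EV (log2 fold change -3.94, SE 0.296, adjusted p = 6.49e-10), Ctsk to 0.152 (log2 fold change -2.72, SE 0.201, adjusted p = 4.98e-10) and Gla to 0.180 (log2 fold change -2.47, SE 0.192, adjusted p = 9.16e-10). The 18 were 3 membrane genes, 5 proteases, 8 glycan enzymes and 2 lipid genes, among them Lamp2 (-1.29, adjusted p = 4.44e-08) and Ctsb (-0.82, adjusted p = 0.000613). Not called were Lamp1 (-0.25, adjusted p = 0.2), Mcoln1 (-0.22, adjusted p = 0.167), Ctsd (-0.10, adjusted p = 0.67) and Npc2 (0.028, adjusted p = 0.92). Without TAZ4SA replicate 3 there were 4 higher and 16 lower, and Ctsd was at 0.17. Without TAZ4SA replicate 2 Lamp1 (-0.46, adjusted p = 0.0179) and Ctsd (-0.44, adjusted p = 0.0307) were called lower, and Smpd1 was at 0.45. The values of YAP5SA and TAZ4SA share the EV libraries.

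In TAZ-CAMTA1 cells Gpnmb, at 53.7, 52.1 and 53.6 CPM, lay inside the EV range, and Ctsk, at 34.2, 30.5 and 28.6 CPM, overlapped it. Gla, at 71.1, 67.5 and 53.9 CPM, and Npc2, at 783, 656 and 762 CPM in EV and 493, 452 and 414 CPM here, lay below EV without overlap. Gaa was at 445, 509 and 485 CPM in EV and 385, 320.5 and 329 CPM in TAZ-CAMTA1 cells, Lamp2 at 677, 580.2 and 584 CPM and Mcoln1 at 59.6, 49.9 and 53.2 CPM. Those 3 genes lay below the EV range too. Lamp1 was at 1445, 1261 and 1195 CPM, Ctsb at 897, 746 and 841 CPM and Ctsd at 1041, 949 and 919 CPM, each library again below all EV libraries, by a narrow margin for Lamp1 and Ctsd.

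By edgeR 0 of 33 members were called higher with TAZ-CAMTA1 and 6 lower, where 12.5% of all tested genes were higher and 8.98% lower. At unadjusted p under 0.05 the counts were 0 and 14, and by DESeq2 0 and 12, where DESeq2 called 3450 of 14360 genes in either direction. Of the 33, 3 had a positive sign, and the median log2 fold change was -0.32 over the members and -0.004 over all tested genes. Among called members Gla fell most, to 0.325 of EV (log2 fold change -1.62, SE 0.184, adjusted p = 1.24e-06), followed by Npc2 at 0.618 (log2 fold change -0.70, SE 0.205, adjusted p = 0.0175) and Gaa at 0.719 (log2 fold change -0.48, SE 0.135, adjusted p = 0.0139). Lamp2 (-0.45, adjusted p = 0.0145), Mcoln1 (-0.45, adjusted p = 0.0161) and, named after its values were seen, Gusb (-0.39, adjusted p = 0.0311) were the other called members. The count was 3 without EV replicate 3 and 1, Gla, without TAZ-CAMTA1 replicate 2 or 3. In those last fits adjusted p was 0.0575 and 0.0789 for Npc2, 0.0733 and 0.0633 for Gaa, 0.0697 and 0.0667 for Lamp2 and 0.0845 and 0.0591 for Mcoln1. Not called were Gpnmb (-0.26, adjusted p = 0.493), Lamp1 (-0.19, adjusted p = 0.458), Ctsb (-0.51, adjusted p = 0.0518), Ctsd (-0.22, adjusted p = 0.456) and Ctsk (-0.25, adjusted p = 0.356).

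Compared directly, 13 of 33 members were higher with TAZ-CAMTA1 than with TAZ4SA and 4 lower, where 26.6% of all tested genes were higher and 28.1% lower. Gpnmb was 12.8-fold higher (log2 fold change 3.68, SE 0.294, adjusted p = 2.86e-09) and Ctsk 5.56-fold (log2 fold change 2.48, adjusted p = 3.32e-09), and Lamp2 was higher too (0.84, adjusted p = 1.59e-05). Npc2 (log2 fold change -0.72, SE 0.205, adjusted p = 0.00519) and Npc1 (log2 fold change -0.69, SE 0.160, adjusted p = 0.00108) had the largest falls among the members. Npc1 lay at 67.8, 61.5 and 63.9 CPM in TAZ-CAMTA1 and 127, 118 and 66.1 CPM in TAZ4SA cells, with overlap through TAZ4SA replicate 3. Npc2 was not called without TAZ4SA replicate 2 (-0.40, adjusted p = 0.0807) or with only the 2 groups compared (-0.70, adjusted p = 0.0781). Lamp1 (0.062, adjusted p = 0.765), Mcoln1 (-0.24, adjusted p = 0.134), Ctsb (0.32, adjusted p = 0.146) and Ctsd (-0.12, adjusted p = 0.626) were not called. Without TAZ4SA replicate 3 the split was 10 higher and 12 lower. Under library totals, chosen after the data were seen, it was 17 higher and 2 lower, and the all-gene median moved from 0.003 to 0.17.

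The 2 fusions were compared with each other, and there 10 of 33 members were higher with YAP-TFE3 than with TAZ-CAMTA1 and 1 lower, where 6.32% of all tested genes were higher and 5.32% lower. Manba (log2 fold change 1.73, SE 0.427, adjusted p = 0.0101) and Npc1 (2.16-fold, log2 fold change 1.11, SE 0.160, adjusted p = 5.92e-05) were furthest up, and Gpnmb was the lower member, at 0.325 of its TAZ-CAMTA1 level (log2 fold change -1.62, SE 0.255, adjusted p = 0.000155). The 10 were 3 proteases, 6 glycan enzymes and Npc1, so no membrane gene was higher. Manba, a low transcript, was not called without TAZ-CAMTA1 replicate 2 (0.0571) or 3 (0.0570), and Ctsk (0.70, adjusted p = 0.012) not without TAZ-CAMTA1 replicate 2 (0.0551), TAZ-CAMTA1 replicate 3 (0.0642) or YAP-TFE3 replicate 1 (0.0810). The count was 6 without TAZ-CAMTA1 replicate 2 or 3 and 7 without YAP-TFE3 replicate 1.

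Sub-confluent empty vector cells had lower lysosomal transcripts than confluent ones. In EVsub cells Ctsk lay at 10.7, 12.3 and 17.3 CPM, Gla at 72.3, 92.2 and 92.6 CPM and Naglu at 46.0, 79.4 and 66.4 CPM, all below the EV range. Gpnmb, at 27.3, 36.6 and 36.6 CPM, Lamp2, at 540.5, 383 and 599 CPM, Mcoln1, at 52.0, 53.2 and 61.3 CPM, Ctsb, at 615, 689 and 742 CPM, and Ctsd, at 593, 711 and 727 CPM, were below it as well. Lamp1, at 1169, 1141 and 1292 CPM, showed a smaller step.

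Between EVsub and EV, edgeR called 0 of 33 members higher and 22 lower, where 12.5% of all tested genes were higher and 9.59% lower. At unadjusted p under 0.05 the counts were 0 and 26, and by DESeq2 0 and 25, where DESeq2 called 3472 of 14360 genes in either direction. Ctsk fell to 0.365 of EV (log2 fold change -1.46, SE 0.185, adjusted p = 1.58e-05), Gla to 0.435 (log2 fold change -1.20, SE 0.182, adjusted p = 8.9e-05) and Naglu to 0.512 (log2 fold change -0.97, SE 0.174, adjusted p = 0.000449). The 22 were spread over the 4 roles, with 5 membrane genes, 6 proteases, 7 glycan enzymes and 4 lipid genes. Lamp2 (-0.73, adjusted p = 0.000413), Ctsb (-0.79, adjusted p = 0.00377), Gpnmb (-0.93, adjusted p = 0.00966), Ctsd (-0.74, adjusted p = 0.00877) and Mcoln1 (-0.42, adjusted p = 0.0251) were among them, while Lamp1 (-0.30, adjusted p = 0.2) and Npc2 (-0.40, adjusted p = 0.167) were not called. Without EVsub replicate 1 the count was 13, and Ctsd (0.0506), Gpnmb (0.0569) and Mcoln1 (0.0962) were not called. Mcoln1 also lost its call without EV replicate 1 (0.0594), EV replicate 3 (0.0721) or EVsub replicate 2 (0.0880).

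CAMTA1 cells, collected below confluence, were compared with EVsub rather than with EV. Gpnmb lay at 41.3, 27.1 and 24.6 CPM, Lamp1 at 1602, 1359.9 and 1257 CPM, Lamp2 at 581, 549 and 556 CPM, Mcoln1 at 74.4, 62.3 and 58.2 CPM, Ctsb at 1076, 839 and 794 CPM, Ctsd at 891, 728 and 686 CPM and Ctsk at 14.6, 15.6 and 17.8 CPM. Of these 7 genes, Ctsb alone had no overlap with EVsub. By edgeR 0 of 33 members were called higher and 0 lower, where 1.29% of all tested genes were higher and 0.891% lower. At unadjusted p under 0.05 the counts were 5 and 0, and by DESeq2 0 and 0, where DESeq2 called 629 of 14360 genes in either direction. The log2 fold changes of the members lay between -0.36 for Npc2 and 0.49 for Cln3, with Ctsb at 0.41, adjusted p = 0.246, Lamp1 at 0.23, adjusted p = 0.464 and Gpnmb at -0.11, adjusted p = 0.841.

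**Figure D4:**
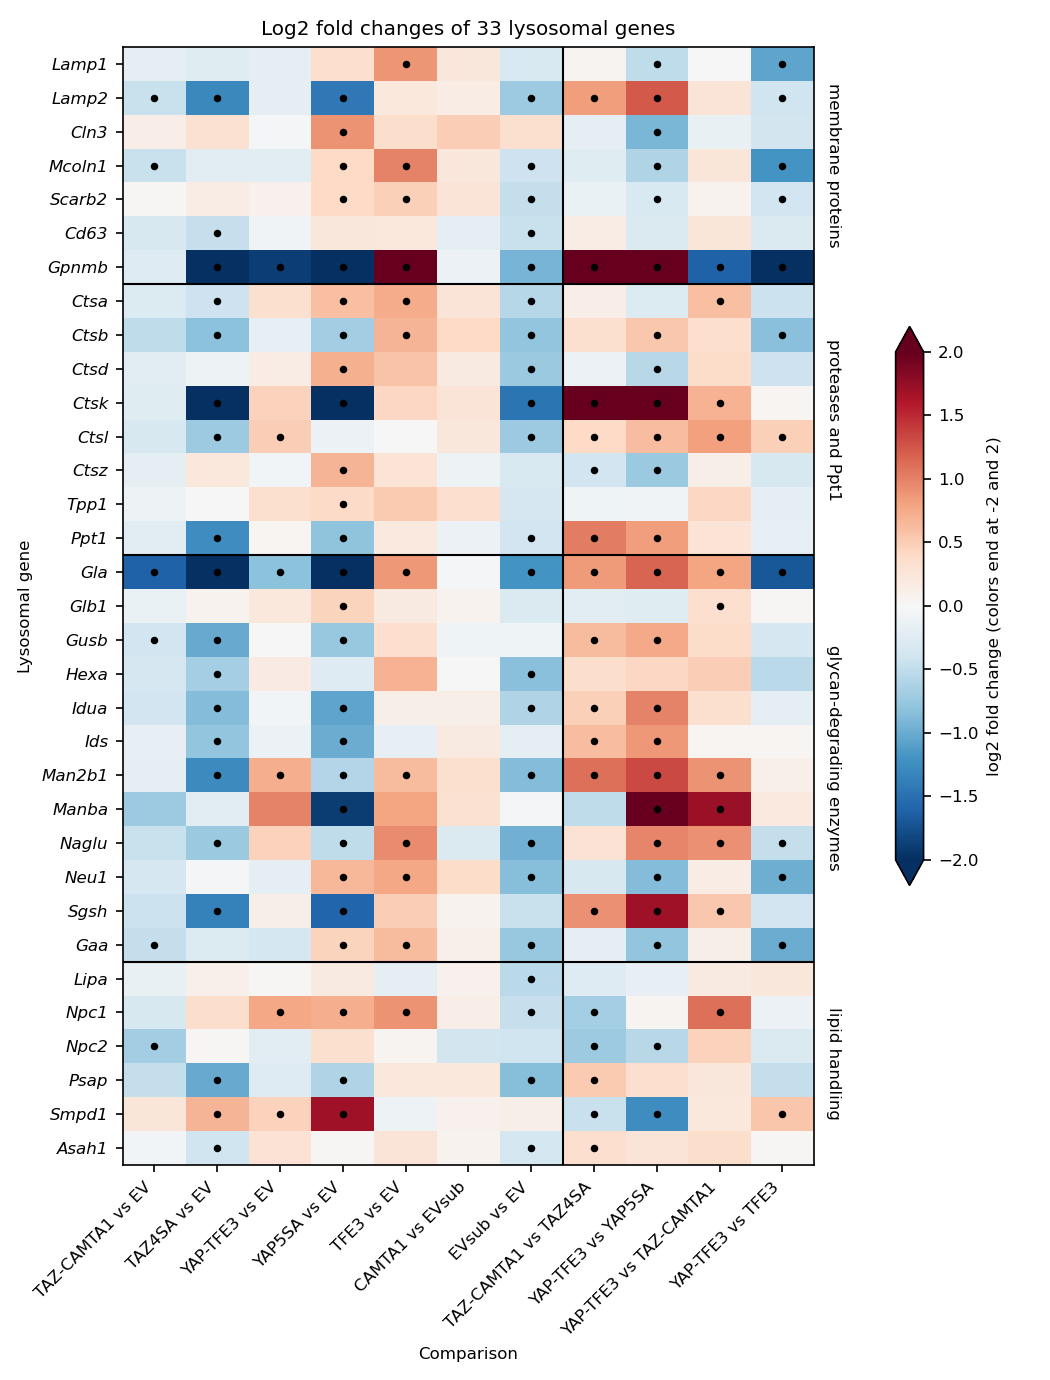
Log2 fold changes of the 33 tested members (vertical axis, by role) in the 11 comparisons (horizontal axis), with colours ending at 2 in each direction and dots at calls. Blue and red are mixed within each role in the YAP5SA comparison, while the calls with TFE3 lie on the red side and those in EVsub on the blue side.

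**Figure D5:**
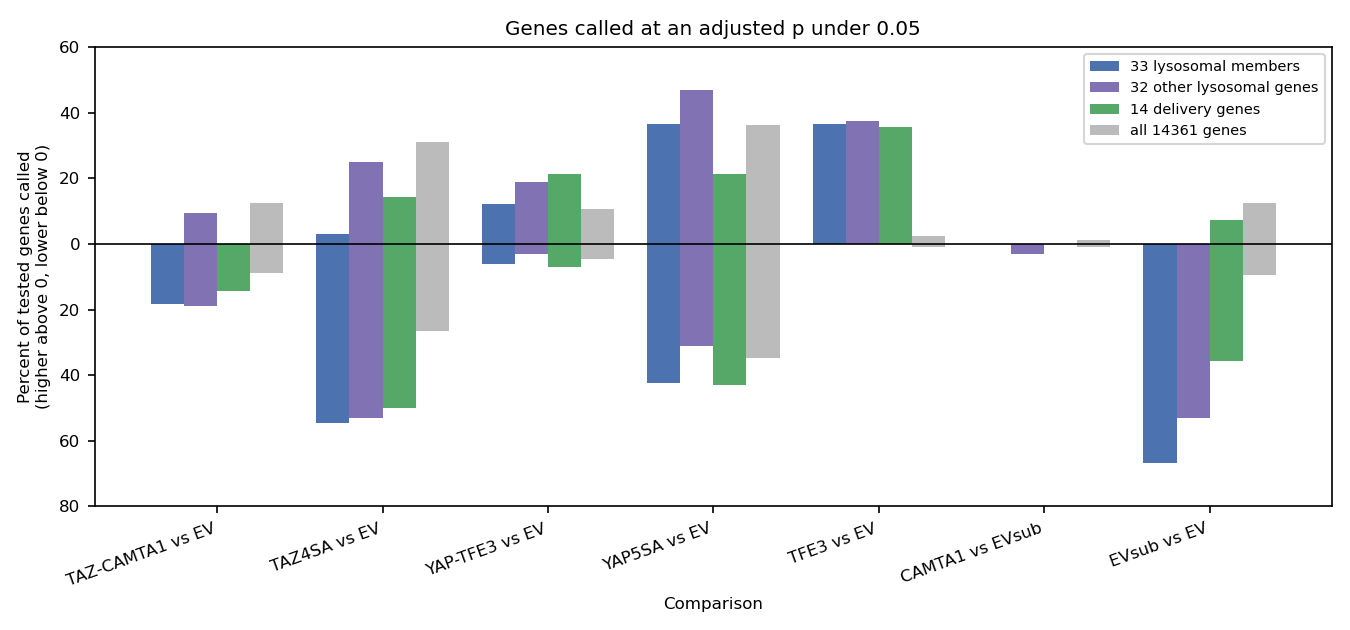
Percent of genes called higher and lower (vertical axis) among the members, the other lysosomal and delivery genes and all tested genes in the 7 comparisons with an empty vector (horizontal axis). The widest gaps between members and all tested genes are on the lower side in EVsub and with TAZ4SA and on the higher side with TFE3.

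Lysosomal genes outside the 34 were listed as a further group of 36 genes, of which 32 were tested (Ctsh, Ctss, Ctsc and Hpse were below the limit), beside 14 genes of enzyme delivery, of which 14 were tested. The percent called in these lists is drawn beside that of the members. With TFE3 the further lysosomal genes had 12 calls higher and 0 lower by edgeR (19 and 1 at unadjusted p under 0.05, 13 and 0 by DESeq2), and the delivery genes 5 and 0 (7 and 0, then 5 and 0), beside 2.36% higher and 1.02% lower of all tested genes. Fuca2 (log2 fold change 1.20, SE 0.159, adjusted p = 9e-05) and Dpp7 (log2 fold change 1.05, SE 0.167, adjusted p = 0.00075) rose most in the first list, and Grn (log2 fold change 0.79, SE 0.178, adjusted p = 0.0144) and Nagpa (log2 fold change 0.69, SE 0.142, adjusted p = 0.00765) in the second. Grn was not called without EV replicate 1 (0.0537), EV replicate 2 (0.0608) or TFE3 replicate 2 (0.0691). Leaving out any 1 library took the count of the first list to between 5 and 7 and that of the second to 3 or 4.

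With YAP-TFE3 the same lists had 6 of 32 higher and 1 lower, and 3 of 14 and 1, beside 10.6% higher and 4.74% lower of all tested genes. Fuca2 (1.77, adjusted p = 1.11e-07), Lgmn (0.88, adjusted p = 0.00129), Grn (0.77, adjusted p = 0.00384) and Nagpa (0.60, adjusted p = 0.00485) rose, and Ctns (-0.55, adjusted p = 0.0051) and Gga2 (-0.47, adjusted p = 0.0111) fell. Grn lost its call without YAP-TFE3 replicate 1 (0.0566), and Gga2 without EV replicate 1 (0.0593) or YAP-TFE3 replicate 1 (0.0545). The counts ranged from 3 to 7 and from 1 to 4 without 1 library. Fuca2, Grn and Nagpa were thus higher than EV with TFE3 and with YAP-TFE3, in values that share EV.

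With TAZ-CAMTA1 the further lysosomal genes had 3 of 32 higher and 6 lower, beside 12.5% higher and 8.98% lower of all tested genes, and this count of 9 ranged from 4 to 11 without 1 library. Fuca2 (0.84, adjusted p = 0.000509) and Man2b2 (0.64, adjusted p = 0.00244) rose, and Ctns (-0.80, adjusted p = 0.00013) and Dpp7 (-0.66, adjusted p = 0.00598) fell. The delivery genes had 0 higher and 2 lower by edgeR (0 and 2 at unadjusted p under 0.05 and by DESeq2), Gga2 (-0.78, adjusted p = 7.29e-05) and Gnptab (-0.64, adjusted p = 0.000303). TAZ4SA gave 8 of 32 higher and 17 lower in the first list and 2 of 14 and 7 in the second, beside 31.1% and 26.4% of all tested genes. There Gm2a (0.83, adjusted p = 3.58e-05) and Lgmn (0.77, adjusted p = 0.000903) rose and Ctso (-1.76, adjusted p = 2.63e-08) and Ctns (-1.58, adjusted p = 4.38e-09) fell, with Gga3 (0.79, adjusted p = 2.19e-05) and Gga1 (0.69, adjusted p = 0.000137) up and Sort1 (-2.51, adjusted p = 4.39e-07) and Gnptab (-1.53, adjusted p = 9.03e-10) down. Lgmn was not called there with only the 2 groups compared (0.0544).

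YAP5SA gave 15 of 32 higher and 10 lower in the first list and 3 of 14 and 6 in the second, beside 36.3% and 34.9% of all tested genes. Gm2a (2.20, adjusted p = 2.17e-11) and Fuca2 (1.46, adjusted p = 4.49e-08) were higher and Ctso (-2.41, adjusted p = 1.28e-10) and Ctns (-1.92, adjusted p = 8.22e-11) lower, with Gga1 (1.08, adjusted p = 2.69e-07) and Sumf2 (0.99, adjusted p = 6.19e-07) up and Sort1 (-2.27, adjusted p = 5.84e-07) and Gnptab (-1.62, adjusted p = 1.07e-10) down. In EVsub the first list had 0 higher and 17 lower by edgeR (0 and 22 at unadjusted p under 0.05, 0 and 19 by DESeq2), led by Dpp7 (-0.91, adjusted p = 0.000546) and Laptm4b (-0.91, adjusted p = 0.00042), and ranged from 9 to 19 without 1 library. Of all tested genes 12.5% were higher and 9.59% lower there. The second had 1 higher, Sumf2 (0.36, adjusted p = 0.0475), and 5 lower, led by Sort1 (-1.50, adjusted p = 0.000676) and Sumf1 (-0.83, adjusted p = 3.36e-05), and ranged from 3 to 6. Sumf2 was not called without EV replicate 1 (0.103), EV replicate 3 (0.190), EVsub replicate 1 (0.0637) or EVsub replicate 2 (0.271), nor with size factors (0.0608), without a filter (0.0712), with at least 10 counts in every library (0.0541) or with only the 2 groups compared (0.127). Between CAMTA1 and EVsub, Pla2g15 was the 1 lower gene of the first list (-0.71, adjusted p = 0.0103) beside 0 higher by edgeR (2 and 2 at unadjusted p under 0.05, 1 and 1 by DESeq2). It lost that call without CAMTA1 replicate 1 (0.0615), CAMTA1 replicate 2 (0.0612), EVsub replicate 2 (0.0863) or EVsub replicate 3 (0.0522) and with only the 2 groups compared (0.175), and the count ranged from 0 to 3. The delivery genes had 0 and 0 by edgeR, at unadjusted p under 0.05 and by DESeq2.

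In the direct comparisons the further lysosomal genes and the delivery genes had, in that order, 14 higher and 10 lower and 5 and 3 for TAZ-CAMTA1 against TAZ4SA, and 9 and 10 and 6 and 3 for YAP-TFE3 against YAP5SA. Of all tested genes 26.6% were higher and 28.1% lower in the former comparison and 36.4% and 34.5% in the latter, so the lysosomal counts of the latter were near those of all genes. For YAP-TFE3 against TAZ-CAMTA1 edgeR gave 10 and 0 in the first list (14 and 0 at unadjusted p under 0.05, 10 and 0 by DESeq2) and 3 and 0 in the second, beside 6.32% higher and 5.32% lower of all tested genes. For YAP-TFE3 against TFE3 it gave 3 and 9 in the first and 0 and 5 in the second (0 and 5 at unadjusted p under 0.05 and by DESeq2). Of all tested genes 14.3% were higher and 8.62% lower in that comparison. In either direction, DESeq2 called 2013 of 14360 genes for YAP-TFE3 against TAZ-CAMTA1 and 3585 for YAP-TFE3 against TFE3.

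The mouse MiT/TFE genes themselves differed between the groups. Mitf lay at 50.5, 55.1 and 50.1 CPM in EV, 31.0, 27.6 and 28.7 in TAZ-CAMTA1, 5.95, 8.84 and 10.994 in TAZ4SA, 3.18, 4.22 and 4.75 in YAP5SA and 18.8, 16.2 and 35.4 CPM in EVsub cells, without overlap with EV. Mitf was also below each EV library in TFE3 (42.4, 43.8 and 46.2 CPM), YAP-TFE3 (40.4, 47.7 and 44.3 CPM) and CAMTA1 cells (17.5, 18.3 and 21.4 CPM). With TFE3 and YAP-TFE3 it was not called against EV. It fell with TAZ-CAMTA1 (log2 fold change -0.84, SE 0.210, adjusted p = 0.00609), TAZ4SA (log2 fold change -2.59, SE 0.229, adjusted p = 6.1e-09) and YAP5SA (log2 fold change -3.69, SE 0.247, adjusted p = 3.14e-11) and in EVsub (log2 fold change -1.15, SE 0.212, adjusted p = 0.00056). Tfe3 rose with TAZ4SA (log2 fold change 0.58, SE 0.137, adjusted p = 0.00103) and YAP5SA (log2 fold change 0.87, SE 0.138, adjusted p = 7.41e-06), and Tfeb with the same proteins (log2 fold change 0.84, SE 0.197, adjusted p = 0.00097 and log2 fold change 0.66, SE 0.198, adjusted p = 0.00524). Under library totals Tfeb was at 0.29 (adjusted p = 0.157) with YAP5SA, and with only the 2 groups compared Tfe3 was at 0.53 (adjusted p = 0.0582) with TAZ4SA. In TFE3 cells mouse Tfe3 was not called (-0.30, adjusted p = 0.308), and its count is no check of the construct, whose species and sequence are not in the files used. Tfec, at a mean of 0.0600 CPM in EV, was called higher with TAZ-CAMTA1 (log2 fold change 2.57, SE 0.840, adjusted p = 0.0313) and YAP-TFE3 (log2 fold change 4.26, SE 0.716, adjusted p = 0.000196). Its mean count was 6.83, and most of its counts lay in the YAP-TFE3 libraries (1.81, 0.871 and 1.10 CPM). Tfec thus passed the limit for testing through the group in which it rose most, and its YAP-TFE3 call carries little weight. Its TAZ-CAMTA1 call was lost without EV replicate 1 (0.0706), EV replicate 3 (0.135), TAZ-CAMTA1 replicate 1 (0.119) or TAZ-CAMTA1 replicate 2 (0.0791). With TFE3 edgeR called 0 of the 4 genes (0 higher and 1 lower at unadjusted p under 0.05, 0 by DESeq2), and between CAMTA1 and EVsub 0 (0 by both).

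Several members are also abundant in macrophages, osteoclasts or melanocytes, so markers of cell types were read beside them. All 12 of 12 fibroblast markers were tested, with Fn1 holding the most counts in each group but YAP5SA (Col1a2), and their sum was 4.32% of counts in EV, 3.71% in TFE3, 5.14% in YAP-TFE3, 4.64% in TAZ-CAMTA1, 2.68% in YAP5SA, 2.35% in TAZ4SA, 3.60% in EVsub and 2.90% in CAMTA1 cells. Of 10 macrophage markers 6 were tested. The 10 together summed to 7.35 CPM in EV, 8.99 in TFE3, 172 in YAP-TFE3 and 33.4 CPM in TAZ-CAMTA1 cells. Their sum was 112 CPM in YAP5SA, 54.2 in TAZ4SA, 8.94 in EVsub and 9.78 CPM in CAMTA1 cells. Lyz2 made up most of the YAP-TFE3 and TAZ-CAMTA1 sums (mean 160 CPM, SD 69.3, and 21.6 CPM), while Cd68 or Cd14 held the most counts in the other groups. Cd68 was at 3.18 CPM in EV, 40.6 in TAZ4SA and 66.9 CPM in YAP5SA cells. Csf1r lay at 0.633, 0.477 and 0.796 CPM in EV, 8.83, 3.97 and 3.43 in TAZ4SA and 53.4, 30.4 and 36.1 CPM in YAP5SA cells. Of the 6 tested, 4 were called higher and 0 lower with TAZ4SA and with YAP5SA, beside 31.1% and 36.3% of all tested genes higher. Itgam and Cd74 were near the limit for testing (mean counts 6.62 and 8.54), with their highest levels in TAZ4SA libraries. Adgre1 and Tyrobp stood at 0 in all 24 libraries. Of 8 osteoclast markers 2 were tested. The 8 together summed to 16.5 CPM in EV, 33.5 in TFE3, 14.5 in YAP-TFE3 and 9.96 CPM in TAZ-CAMTA1 cells. Their sum was 3.25 CPM in YAP5SA, 5.85 in TAZ4SA, 8.78 in EVsub and 7.32 CPM in CAMTA1 cells. Itgb3 was the most abundant and Calcr was at 0.

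Of 6 melanocyte markers 2 were tested. The 6 together summed to 8.16 CPM in EV, 26.9 in TFE3, 4.77 in YAP-TFE3 and at most 2.80 CPM in the other groups. Mlana held the most counts in each group but TAZ4SA, YAP5SA and EVsub (Pmel). Mlana (1.59, adjusted p = 0.0227), Pmel (2.53, adjusted p = 9.21e-06) and Itgb3 (1.33, adjusted p = 0.014) were higher with TFE3, beside Gpnmb, while Tnfrsf11a, the other osteoclast marker tested, was not called (-0.41, adjusted p = 0.514). Of 4 epithelial markers 1 was tested, Cdh1. The 4 together summed to at most 0.902 CPM in any group, with Epcam at 0. Of 4 endothelial markers 3 were tested. The 4 together had sums of 3.21 CPM in EV, 2.39 in TFE3, 3.58 in YAP-TFE3 and 4.58 CPM in TAZ-CAMTA1 cells. Their sum was 7.95 CPM in YAP5SA, 10.6 in TAZ4SA, 0.453 in EVsub and 0.446 CPM in CAMTA1 cells. These sums joined opposite moves of sparse transcripts: Tek, nearly all of the sum in EV, fell with TAZ4SA (-3.92, adjusted p = 1.2e-06) and YAP5SA (-2.32, adjusted p = 4.23e-05), while Kdr, the most abundant there, rose (6.91, adjusted p = 1.79e-10 and 6.33, adjusted p = 1.96e-10). Markers were higher or lower in several groups alongside the members, and their part in the result was not tested.

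Some members share exon sequence with other annotated genes. On the same strand these were Ctsd with Gm49369, Ctsl with Gm49230 and Glb1 with Tmppe, and Cd63 has the named pseudogene Cd63-ps. On the opposite strand they were Ctsa with Neurl2 and Pltp, Ctsb with Fdft1, Ctsl with Gm47123, Cln3 with Apobr, Lamp1 with Grtp1, Sgsh with Card14, Npc1 with Rmc1 and Gm15956, Hexa with Tmem202, Idua with Dgkq and Slc26a1, Ppt1 with Cap1 and Ctsz with Nelfcd. The libraries were stranded per the methods, which do not say how the counting of the files used here treated strand. Gpnmb, Lamp2, Mcoln1, Ctsk, Gla, Naglu and Smpd1 share none. With 3 libraries per group, the p-values measure the spread between these samples of pooled lines, and transcript levels say nothing of enzyme activity, protein amount or lysosome number.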

How the data were processed

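RNA of 24 libraries (8 groups of 3) was read from the gene counts deposited by the authors, who processed reads with bcbio after bcl2fastq. Their methods name alignment to mm10 with Hisat2 and also Salmon with tximport, and do not say which made the deposited counts. Counts entered edgeR 4.0.16 in R 4.3.3 with TMM scaling, 1 quasi-likelihood fit over the 8 groups, genes with a mean count of at least 5 (14361) and Benjamini-Hochberg adjustment per comparison, with calls at adjusted p under 0.05. CPM are TMM-scaled. DESeq2 1.42.0, size factors, other filters, 2-group fits, replicate blocks and each library left out were the alternatives, and library totals were added after the data were seen. Members and lists were chosen with earlier results of these data known. Per-kb levels used exon lengths of GENCODE M21, which matched 37693 identifiers of the files. Tables and figures were made with matplotlib 3.10.9, numpy 2.4.6 and pandas 2.3.3 under Python 3.11.15.

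Named members were the 3 largest rises and falls among called members in each of the 7 comparisons with an empty vector and the 2 largest each way in the 4 direct comparisons, beside Lamp1, Lamp2, Ctsb, Ctsd, Mcoln1, Gpnmb, Ctsk and Npc2. From the other lysosomal and delivery lists the 2 largest rises and falls in each of the 7 comparisons were named, and each MiT/TFE gene. Other members were named after their values were seen.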

Additional observations from a re-analysis of the deposited data

How the results depend on the processing

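Leaving out 1 library at a time, the count of called members ranged from 1 to 8 for TAZ-CAMTA1 vs EV (6 with all libraries), 17 to 22 for TAZ4SA vs EV (19), 4 to 8 for YAP-TFE3 vs EV (6), 23 to 26 for YAP5SA vs EV (26), 7 to 9 for TFE3 vs EV (12), 0 to 0 for CAMTA1 vs EVsub (0) and 13 to 22 for EVsub vs EV (22). It ranged from 14 to 22 for TAZ-CAMTA1 vs TAZ4SA (17), 22 to 24 for YAP-TFE3 vs YAP5SA (24), 6 to 12 for YAP-TFE3 vs TAZ-CAMTA1 (11) and 8 to 10 for YAP-TFE3 vs TFE3 (12). Moved by over 1.5 times were TAZ-CAMTA1 vs EV (3 without EV replicate 3, 1 without TAZ-CAMTA1 replicate 2 and 1 without TAZ-CAMTA1 replicate 3), TFE3 vs EV (7 without EV replicate 1, EV replicate 3 or TFE3 replicate 2), EVsub vs EV (13 without EVsub replicate 1) and YAP-TFE3 vs TAZ-CAMTA1 (6 without TAZ-CAMTA1 replicate 2, 6 without TAZ-CAMTA1 replicate 3 and 7 without YAP-TFE3 replicate 1).

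Of the other settings, TAZ-CAMTA1 vs EV gave 11 with library totals, 10 with at least 10 counts in every library, 14 with only the 2 groups compared and 12 by DESeq2. With only the 2 groups compared TAZ-CAMTA1 vs TAZ4SA gave 11 and YAP-TFE3 vs TFE3 gave 21. Library totals split YAP5SA vs EV into 4 higher and 17 lower. Of 155 calls of a member in a comparison, 0 were lost with size factors, 15 with library totals, 3 without a filter, 2 with at least 10 counts in every library (3 more had no value there), 15 with only the 2 groups compared and 0 by DESeq2, and 48 were lost without some 1 library.

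The sign of a called value changed for Scarb2 in YAP-TFE3 vs YAP5SA (0.053 with library totals). Among values not called, Npc2 in TAZ4SA vs EV was at -0.004 with size factors, -0.20 with library totals, -0.004 without a filter, -0.049 with at least 10 counts in every library, -0.032 with only the 2 groups compared, -0.004 by DESeq2, -0.047 without EV replicate 2 and -0.29 without TAZ4SA replicate 2. Ctsd in TAZ4SA vs EV ranged from -0.44 (without TAZ4SA replicate 2) to 0.17 (without TAZ4SA replicate 3), and Npc2 there reached 0.31 without TAZ4SA replicate 3. With library totals Lamp1 in YAP5SA vs EV was at -0.048 and Npc2 at -0.056. Npc2 in TFE3 vs EV ranged from -0.024 (without EV replicate 2) to 0.099 (without EV replicate 1). In CAMTA1 vs EVsub, Gpnmb ranged from -0.38 (without CAMTA1 replicate 1) to 0.034 (without CAMTA1 replicate 3) and Lamp2 from -0.019 (without EVsub replicate 2) to 0.28 (without EVsub replicate 3).

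Replicate numbers were not used as pairs: in no comparison were all 3 correlations between like-numbered libraries over 0.1, with 0.252, -0.002 and 0.41 in CAMTA1 vs EVsub. There the mean was 0.22 for like and -0.111 for unlike numbers, and this rule cannot show that pairing is absent. With the replicate number as a block the counts were 7 for TAZ-CAMTA1 vs EV, 19 for TAZ4SA vs EV, 6 for YAP-TFE3 vs EV, 26 for YAP5SA vs EV, 11 for TFE3 vs EV, 0 for CAMTA1 vs EVsub, 21 for EVsub vs EV, 17 for TAZ-CAMTA1 vs TAZ4SA, 24 for YAP-TFE3 vs YAP5SA, 9 for YAP-TFE3 vs TAZ-CAMTA1 and 11 for YAP-TFE3 vs TFE3. The block took away 5 of the 155 calls, Ctsb in TFE3 vs EV among them (0.67, adjusted p = 0.0573), and the cause was not tested.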
